A study of Homo sapiens with 3 samples.

Results

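The zinc finger gene clusters of chromosome 19 held 145 of the 17089 sites at which Myc-tagged wild-type Idax was detected (0.848% of the list, and 11.5% of the 1259 sites on chromosome 19). A site, or peak, was counted when its middle lay in 1 of 6 stretches of hg19, given by position and not by the number or score of their peaks. They run from 11650000 to 12550000 (cluster 1), from 19800000 to 24400000 (cluster 2), from 36700000 to 38300000 (cluster 3), from 44250000 to 45000000 (cluster 4), from 52300000 to 54000000 (cluster 5) and from 56600000 to 59100000 (cluster 6). The region of the imprinted gene PEG3 in cluster 6, from 57340000 to 57360000, was left out and held 0 peaks.

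The peaks come from chromatin immunoprecipitation and sequencing (ChIP-seq) in HEK293T, a line derived from human embryonic kidney cells and transformed with SV40 large T antigen. Stable lines had received wild-type Myc-Idax, a mutant impaired in DNA binding (Myc-IdaxDBM) or an empty vector. An agarose gel carrying anti-c-Myc antibody was used for every line, and peaks of each Idax line were called over the empty-vector line. The design gives 2 replicates per condition, but each Idax line had 1 peak list, so no value below has a replicate error, no comparison has a test, and read depth is unknown. Each peak has a score, the authors' own value, used here only within the wild-type list. Over that list the median score was 223 (quartiles 109 and 408) and the median width 1116 bp (quartiles 826 and 1503 bp).

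Idax (CXXC4) binds DNA through a CXXC zinc finger, which recognises CpG that is not methylated, and it lacks the catalytic domain of the TET enzymes that oxidise 5-methylcytosine. The genes of these clusters encode zinc fingers of another kind, long arrays of C2H2 fingers that recognise DNA sequence. Many of them also carry a KRAB domain, which recruits the corepressor KAP1 (TRIM28) and with it histone H3K9 methylation and HP1, and many silence transposable elements. The families grew by tandem duplication, so neighbouring genes are often close copies of each other. Their start sites often lie in CpG islands, while their finger-coding exons are known to carry H3K9me3.

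RefSeq's gene table, of build GRCh38.p14, was used for names, gene order and promoter sequence and for no position. It lists 265 genes named ZNF, ZFP, ZSCAN, ZIM, ZIK or ZKSCAN among 1451 protein-coding genes of chromosome 19 (18.3%). Of these 265 genes, 241 (90.9%) stood directly beside another gene with such a name, and the longest unbroken run had 27. Promoter sequence (250 bases before to 50 after the start) was matched for 229 of the 265 and for 956 of the 1186 other genes. The zinc finger promoters held a median of 20 CpG in 300 bases (quartiles 14 and 26), and the others a median of 21 (quartiles 9 and 31). The middle of the zinc finger promoters was thus close to that of the other genes, and their quartiles lay closer together. No peak was assigned to a gene, because positions of hg19 genes were not used here. The cluster borders were therefore taken as given.

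Idax peaks were sparser in the clusters than on the rest of the chromosome. The 145 peaks lay in 12.03 Mb, or 12.1 per Mb (95% interval 10.2 to 14.2), and the 1114 others in 46.8 Mb, or 23.8 per Mb (22.4 to 25.3). The ratio of these densities was 0.506 (0.423 to 0.602). The intervals here and below cover counting error only, and neighbouring peaks are not independent. Clusters made up 20.5% of the span between first and last peak of the chromosome and contained 11.5% of its peaks. They were nevertheless denser than the list as a whole, which had 5.7 peaks per Mb. Peaks covered 1.19% of the span of the clusters and 2.71% of that of the rest, which includes the centromere.

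**Figure D1:**
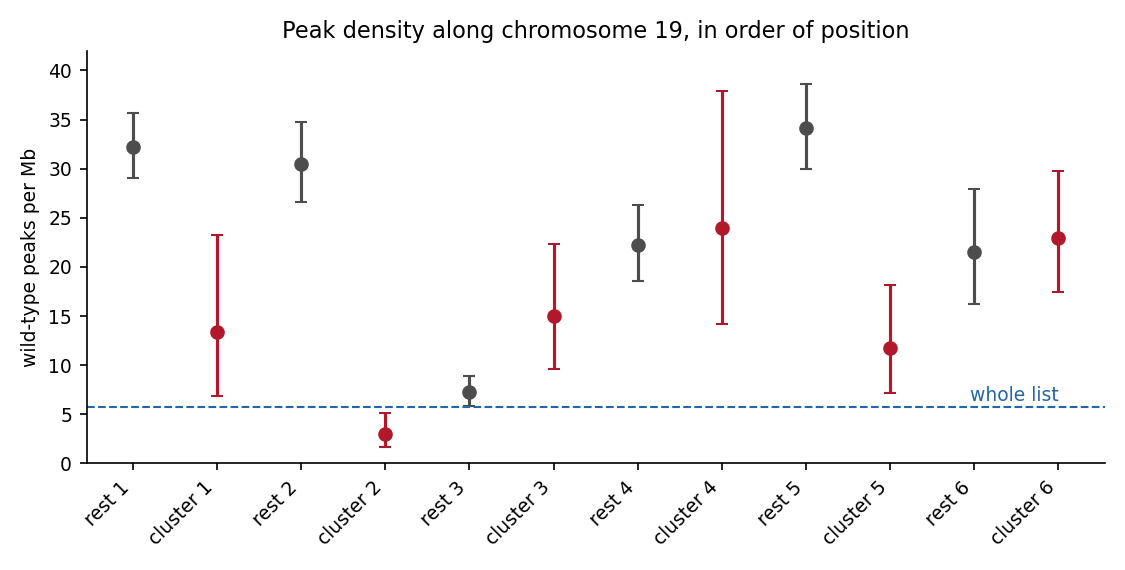
Wild-type peaks per Mb in the 6 clusters (red) and the 6 stretches of chromosome 19 before and between them (grey), in order of position. Points are densities, bars are exact Poisson 95% intervals and the dashed line is the density of the whole list. Clusters 4 and 6 sit among the grey stretches, and cluster 2 sits below every other stretch.

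The clusters differed widely among themselves. Cluster 4 was the densest, with 18 peaks or 24 per Mb (14.2 to 37.9). Cluster 6 followed with 57 peaks or 23.0 per Mb (17.4 to 29.8). Both were close to the 23.8 per Mb of the rest of the chromosome, with ratios of 1.01 (0.595 to 1.6) and 0.965 (0.726 to 1.26). Cluster 3 had 24 peaks or 15 per Mb (9.61 to 22.3), and cluster 1 had 12 peaks or 13.3 per Mb (6.89 to 23.3). In cluster 5 there were 20 peaks, or 11.8 per Mb (7.19 to 18.2). Cluster 2, the longest, had 14 peaks in 4.6 Mb, or 3.04 per Mb (1.66 to 5.11), which is 0.128 times the density of the rest (0.0696 to 0.215).

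In this order the neighbours 4 and 6, 6 and 3, 3 and 1, and 1 and 5 did not differ beyond counting error. The ratio of cluster 4 to cluster 6 was 1.04 (0.578 to 1.8), that of cluster 3 to cluster 6 was 0.653 (0.387 to 1.07), that of cluster 1 to cluster 3 was 0.889 (0.405 to 1.85) and that of cluster 1 to cluster 5 was 1.13 (0.505 to 2.43). Clusters farther apart in the order did differ in places. Cluster 4 had 2.04 times the density of cluster 5 (1.02 to 4.06), and cluster 5 had 0.512 times that of cluster 6 (0.291 to 0.865). The intervals of all other pairs without cluster 2 contained 1. Cluster 2 stood apart from its neighbour in the order, at 0.259 times the density of cluster 5 (0.121 to 0.539). Without cluster 2 the ratio of the clusters to the rest was 0.74 (0.613 to 0.888), and without cluster 6 it was 0.387 (0.308 to 0.481).

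The rest of chromosome 19 was uneven as well. The short-arm stretches on either side of cluster 1 had 32.2 per Mb (29.0 to 35.7) and 30.5 per Mb (26.6 to 34.8). The stretch between clusters 4 and 5 had 34.1 per Mb (30.0 to 38.6). The stretches beside these, between clusters 3 and 4 and between clusters 5 and 6, had 22.2 (18.6 to 26.3) and 21.5 per Mb (16.3 to 28.0). The stretch from cluster 2 to cluster 3, which contains the centromere, had only 7.24 per Mb (5.81 to 8.9), and the middle of its first peak lay 3885 kb beyond the end of cluster 2. Cluster 2 lay below that stretch too. When windows of 1 Mb without any peak were left out of the span, the ratio of clusters to rest was 0.568 (0.475 to 0.676).

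In windows of 250 kb, laid end to end from the start of each stretch, the clusters held a median of 2 peaks (quartiles 0.25 and 4) and the rest a median of 5 (2 and 9). Of 46 cluster windows, 12 were empty (26.1%), and 10 of those 12 were in cluster 2. On the rest, 35 of 185 windows were empty (18.9%), and 25 of those 35 were in the stretch from cluster 2 to cluster 3. Empty windows were thus mostly those of cluster 2 and of that stretch. Only 3 cluster windows (6.52%) held 10 or more peaks, against 42 of 185 windows of the rest (22.7%). The fullest cluster window, in cluster 6, held 17 peaks and the fullest window of the rest held 32.

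Peaks of the clusters had scores that overlapped those of the rest along most of their range. The lowest, median and highest scores were 51.4, 181 and 925 in the clusters and 50.02, 209 and 2001 in the rest. The 95% interval of the cluster median, 141 to 216, contained the median of the rest, so that the difference of -28.2 had an interval from -68.1 to 6.69. It was -57.3 (-93.0 to -6.18) among peaks of score 100 or more, -43.1 (-83.1 to -6.75) with close peaks merged and -50.4 (-75.1 to -6.86) with all borders moved inwards by 100 kb. These intervals take the median of the rest as fixed. Of the peaks in the clusters, 23 of 145 (15.9%, 10.3 to 22.8) belonged to the highest quartile of scores in the list, against 264 of 1114 peaks of the rest (23.7%, 21.2 to 26.3), and these intervals overlap. None of the 10 strongest peaks of chromosome 19 lay in a cluster, and 2 of the 50 strongest, 6 of the 100 strongest and 18 of the 200 strongest (9%) did, beside 11.5% of all peaks of the chromosome. The lowest quartile held 26.2% of cluster peaks (19.3 to 34.2) and 29.2% of the others (26.5 to 31.9). That share was 7.02% in cluster 6 (4 of 57, 1.95 to 17.0) and 38.6% in clusters 1 to 5 (34 of 88, 28.4 to 49.6), with 50% in cluster 2 and 45% in cluster 5.

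Cluster 6 had higher scores than clusters 1 to 5. In cluster 6 the lowest, median and highest scores were 52.0, 289 and 925, and 36 of its 57 peaks (63.2%, 49.3 to 75.6) lay above the median of the list. In clusters 1 to 5 together the median was 136 (115 to 159), and 23 of 88 peaks (26.1%, 17.3 to 36.6) lay above it. The interval of the median of clusters 1 to 5 lay wholly below that of the rest, 190 to 222, and that of cluster 6 (217 to 352) reached above it. Of the 23 cluster peaks in the highest quartile of the list, 19 were in cluster 6. This split was made after the scores were seen.

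**Figure D2:**
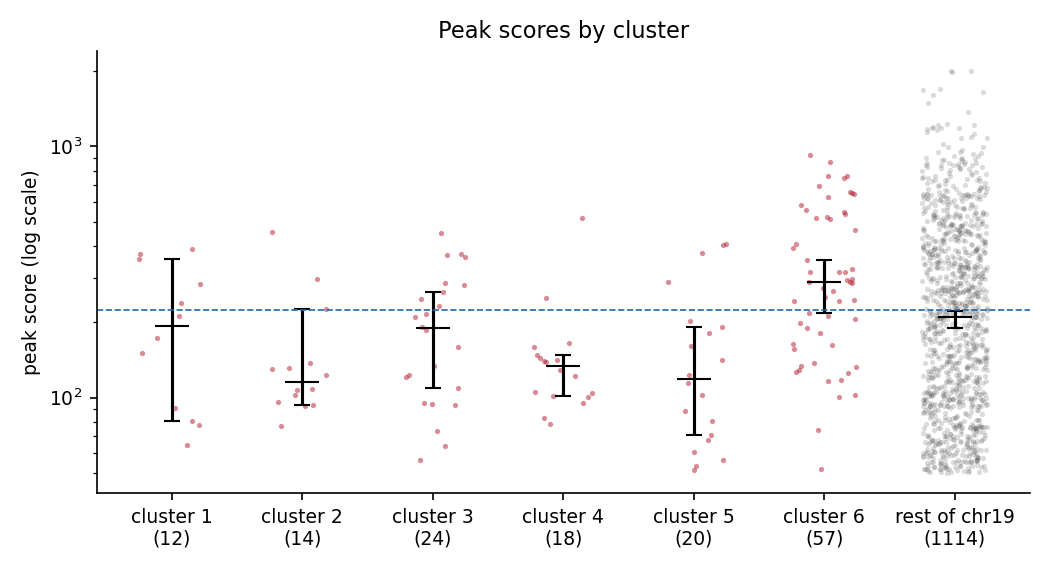
Score of each peak by cluster (red) and on the rest of chromosome 19 (grey), on a log axis, with numbers of peaks in parentheses. Black bars are medians with order-statistic 95% intervals, and the dashed line is the median of the whole list. Cluster 6 has a median of 289 and clusters 2, 4 and 5 have medians between 116 and 134.

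Cluster 1 had a median score of 192 (80.8 to 358). Its strongest and widest peak, at 11849099 to 11850368, scored 390.2 over 1270 bp. The neighbour before it, at 11805054 to 11806298, scored 372 over 1245 bp. These 2 lie in the first 250 kb or so of the cluster, where 6 of its 12 peaks stood between 11669687 and 11878124. The weakest peak, at 12035614 to 12036366 with a score of 64.8, opened the longest gap, 238 kb between the middles of neighbouring peaks. At the far side of that gap the peak at 12273507 to 12274249 scored 90.9. The middle of the cluster was thus sparse, and the peaks on both sides of the gap were weak. Weak peaks also stood elsewhere, with scores of 77.8 in the dense first part and 80.8 near the end.

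Cluster 2 had 2 stretches of over 1 Mb without a peak. The first, of 1316 kb, followed the peak at 19886827 to 19887908, which was the strongest of the cluster (score 454, width 1082 bp). It ended at the peak at 21202984 to 21204008, the next strongest (score 296). The second, of 1483 kb, separated the peak at 21949787 to 21950758 (score 96.2) from that at 23432635 to 23433574 (score 93.8). The peaks stood in 3 groups, 2 at the start, 8 between 21202984 and 21950758 and 4 from 23432635 onwards. The peaks above the median of the list were the 2 at the start, with scores of 226 and 454, and the first beyond the gap, with 296. The other 11 scored between 76.8 and 138, and the cluster's median was 116 (93.8 to 226).

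Cluster 3 had peaks along its whole length, with a longest gap of 164 kb and a median score of 188 (109 to 264). Its strongest and widest peak, at 38145562 to 38147445, scored 453 over 1884 bp. The next, at 37568763 to 37569688, reached 372 over only 926 bp. The weakest, at 37329058 to 37329666, scored 56.3. Strong and weak peaks stood side by side: the peak at 37157406 to 37158142 scored 122 and the next one, 20.6 kb on, scored 368.

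Cluster 4 combined a high density with low scores. Its first peak, at 44258310 to 44260147, was by far the strongest (score 520, width 1838 bp), and the second, at 44278260 to 44279121, scored 249. All 16 others scored between 78.4 and 164, below the median of the list. Among them was a run of 11 peaks in 230 kb, from 44439148 to 44669593, whose middles were 15.9 to 32.8 kb apart (median 22.3 kb). These 11 had scores from 82.9 to 164 and widths from 693 to 982 bp. No peak of the run reached the median score of the list. The rank correlation of score with width in this cluster was 0.22 over 18 peaks, against 0.68 over the 145 cluster peaks and 0.77 over the rest of the chromosome. All 3 values come from 1 list, and no test was made of them.

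Cluster 5 fell into a denser and stronger first part and a weaker remainder. Of its 20 peaks, 10 lay in the first 500 kb, with a median score of 172 and a highest of 409.9 at 52772554 to 52773594. The next strongest, at 52551694 to 52552835, scored 404. A gap of 438 kb followed the narrowest peak, at 52800375 to 52800842 (468 bp, score 56.6). Between 53300000 and 53800000 there were 6 peaks with a median score of 75.8 and a median width of 641 bp. They included the weakest of all cluster peaks, at 53360597 to 53361237, with a score of 51.4. The widest peak of the cluster, at 52641845 to 52643741, was an exception to the rule that wide peaks are strong, with 1897 bp and a score of 123.

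Cluster 6, which reaches the end of the long arm, held its strongest peaks at that end. Its last 500 kb, from 58600000 to 59100000, contained 22 peaks with a median score of 542 and a median width of 1307 bp. Of these 22, 14 belonged to the highest quartile of the list. The preceding 500 kb had 11 peaks with a median score of 163 and a median width of 816 bp, and 1 of them was in that quartile. The 2 strongest cluster peaks of all stood close together in this end part, at 58873065 to 58874673 (score 925) and at 58891691 to 58892952 (score 871). The next strongest, at 59083895 to 59085369, scored 762. The widest of all 145, at 58918997 to 58921039, was 2043 bp wide and scored 628. The last peak of chromosome 19, at 59092309 to 59093012, was weak again, with a score of 74.0.

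Elsewhere in cluster 6 the peaks were mixed. The strongest outside the end part, at 57874294 to 57875238, scored 751 over 945 bp, and that at 57998772 to 57999596 scored 649.8 over 825 bp. The peaks between them scored 326, 217, 525 and 52.0, in order of position. The last of these, at 57988750 to 57989299, was the weakest of the cluster. Their neighbours on the outer sides scored 189 and 156. A gap of 596 kb, the longest of this cluster, ran from the peak at 57106383 to 57107071 to that at 57702447 to 57703483 and contains the omitted PEG3 region. With the last 500 kb left out, a choice made after the data were seen, cluster 6 had 17.7 peaks per Mb (12.3 to 24.6), and the median of all clusters was 151.

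**Figure D3:**
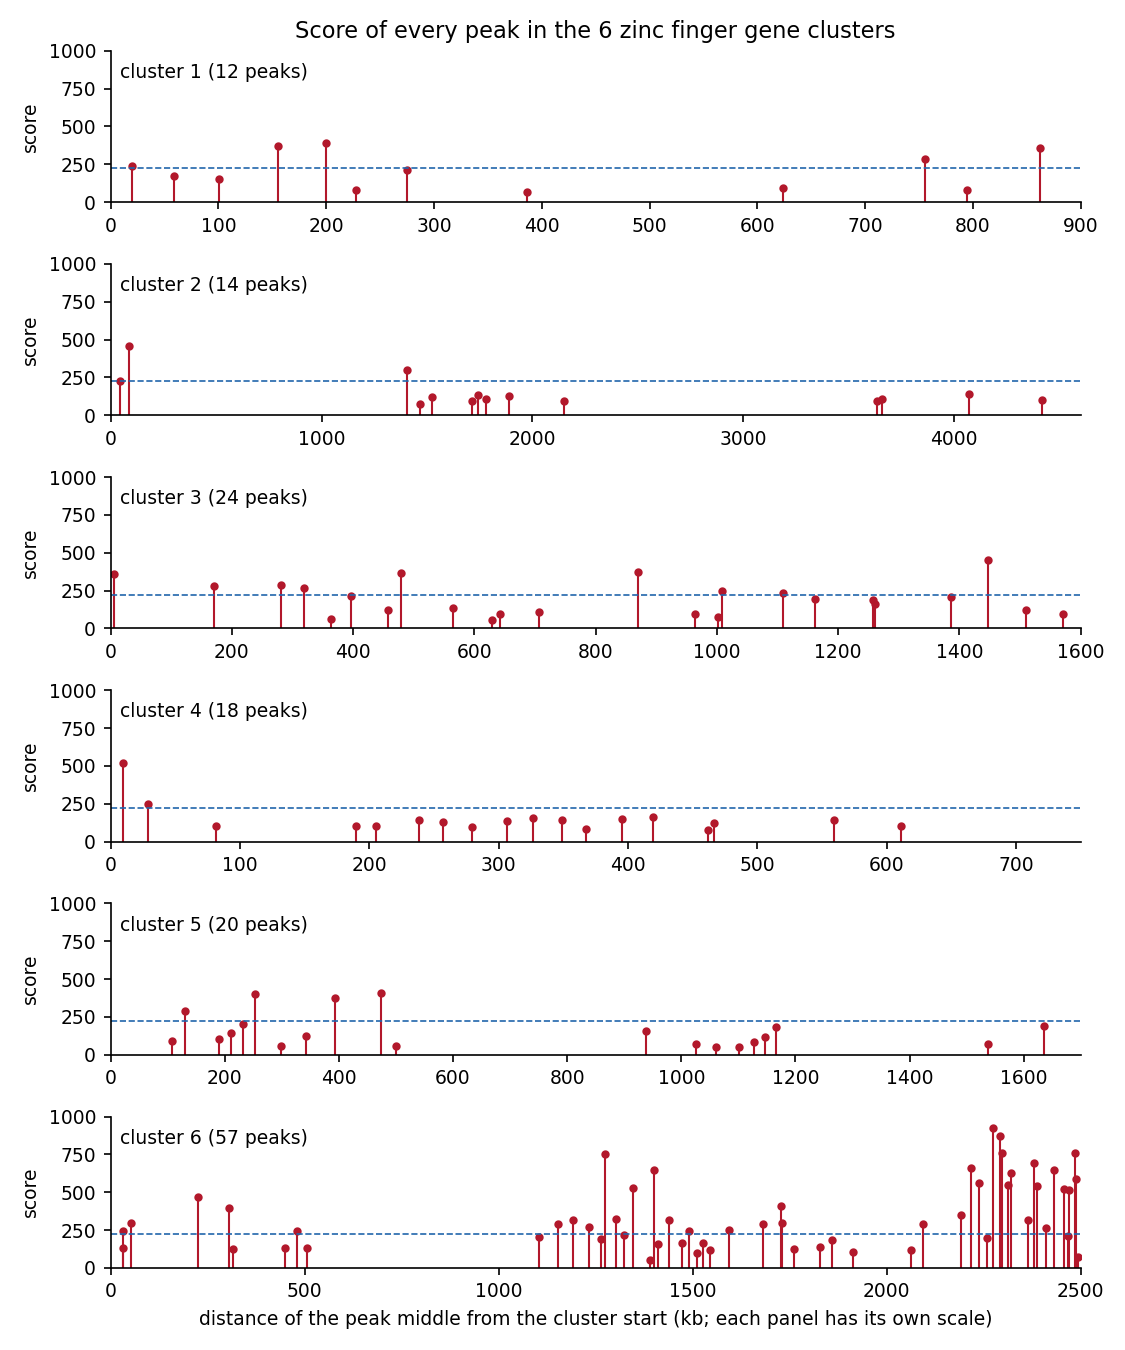
Score of each of the 145 peaks against the distance of its middle from the start of its cluster, 1 panel per cluster with its own horizontal scale. The dashed line is the median score of the whole list. Cluster 2 shows gaps of 1316 and 1483 kb, cluster 4 an even run of 11 low peaks, and cluster 6 its highest scores in its last 500 kb.

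Neighbouring peaks lay farther apart in the clusters. Middles of neighbouring peaks were a median of 37.8 kb apart in the clusters (28.1 to 43.5, 139 distances) and 18.9 kb on the rest of the chromosome (17.1 to 20.8, 1108 distances). Short distances were rare in the clusters: 11 of 139 were under 10 kb (7.91%, 4.02 to 13.7), against 362 of 1108 on the rest (32.7%, 29.9 to 35.5). Distances of over 100 kb made up 15.1% in the clusters and 5.96% on the rest. Cluster medians ran from 23.5 kb in cluster 4 and 23.8 kb in cluster 6 over 40.0 kb in cluster 5, 47.1 kb in cluster 1 and 61.6 kb in cluster 3 to 109 kb in cluster 2.

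Peaks with another peak less than 1 kb from their edge were few. In the clusters there were 4 of 145 (2.76%, 0.757 to 6.91), and on the rest of the chromosome 224 of 1114 (20.1%, 17.8 to 22.6). The 6 stretches of the rest ranged from 13.5% to 25.3%, so each lay above the upper limit of the clusters. Over the whole list the share was 14.7%. The 4 cluster peaks formed 2 pairs. One, in cluster 6, joined a peak at 56631523 to 56632297 (score 129) with one at 56632510 to 56633282 (score 241), separated by 212 bp. The other, in cluster 3, joined peaks at 37957520 to 37958774 (score 186) and 37959672 to 37960623 (score 159), separated by 897 bp.

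Since the clusters were sparser, stretches of like density were also set side by side. Clusters 4 and 6 together had 23.2 peaks per Mb (18.3 to 29.1), and 2 of their 75 peaks (2.67%, 0.325 to 9.3) had a neighbour within 1 kb. Of their 73 distances, 9 were under 10 kb (12.3%, 5.8 to 22.1) and 51 were between 10 and 50 kb (69.9%, 58.0 to 80.1). The stretches of the rest nearest to them in density, between clusters 3 and 4 and between clusters 5 and 6, together had 22.0 peaks per Mb (19 to 25.4). There, 33 of 188 peaks (17.6%, 12.4 to 23.8) had a neighbour within 1 kb. Of the 186 distances in these stretches, 58 were under 10 kb (31.2%, 24.6 to 38.4) and 97 between 10 and 50 kb (52.2%, 44.7 to 59.5). Both groups were chosen with their densities known, and the difference was not tested.

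**Figure D4:**
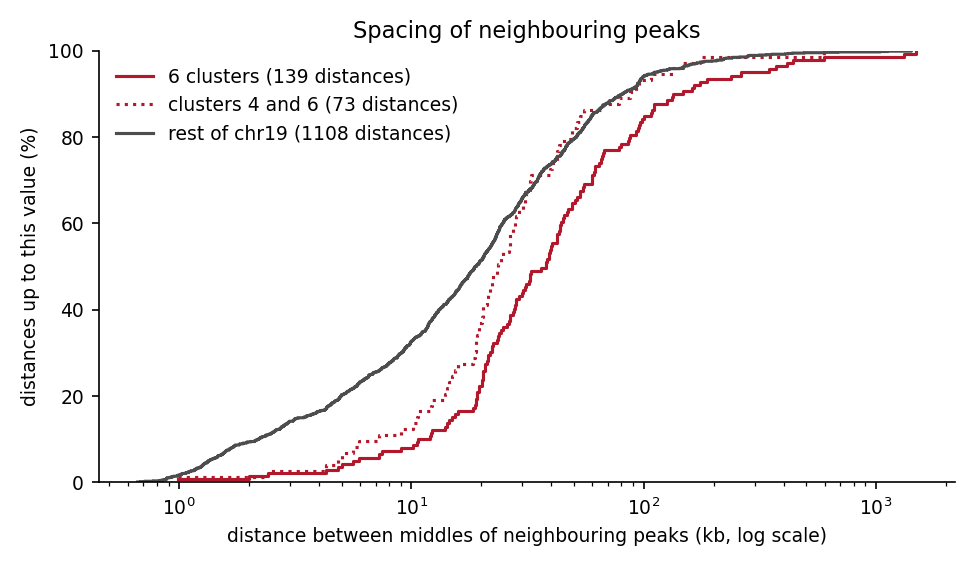
Cumulative share of distances between the middles of neighbouring peaks, on a log axis, for the 6 clusters (red), clusters 4 and 6 alone (red, dotted) and the rest of chromosome 19 (grey). At 10 kb the curves stand at 7.91%, 12.3% and 32.7%, and that of clusters 4 and 6 meets that of the rest at the longer distances.

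Cluster peaks were narrower, and broad ones were rare. The lowest, median and highest widths were 468, 926 and 2043 bp in the clusters and 414, 1023 and 4149 bp on the rest. The interval of the cluster median, 882 to 960 bp, lay below that of the rest, 996 to 1053 bp. Of the cluster peaks, 12 (8.28%, 4.35 to 14.0) were 1503 bp or wider, the highest quartile of widths in the list, against 204 of the others (18.3%, 16.1 to 20.7). The 12 were 8 in cluster 6, 2 in cluster 5 and 1 each in clusters 3 and 4. Median widths per cluster ran from 784 bp in cluster 5 and 804 bp in cluster 4 to 979 bp in cluster 3 and 1062 bp in cluster 1.

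For their width, narrow cluster peaks did not score low. Among peaks under 826 bp, the lowest quartile of widths in the list, the median score was 122 over 53 cluster peaks (90.9 to 137) and 83.0 over 332 others (77.3 to 91.9), and these intervals meet at their edges. From 826 up to 1116 bp the medians were 204 over 54 cluster peaks and 188 over 310 others. From 1116 up to 1503 bp they were 334 over 26 and 331 over 268, and from 1503 bp upwards 520 over 12 and 508 over 204. In no width class was the median of all clusters together below that of the rest. This held only with cluster 6 included. In clusters 1 to 5 alone, the median was above that of the rest under 826 bp and below it in every wider class. All clusters together differed from the rest in how many peaks fell in each class, with 36.6% of cluster peaks and 29.8% of the others in the narrowest. In the widest class the shares were 8.28% and 18.3%.

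**Figure D5:**
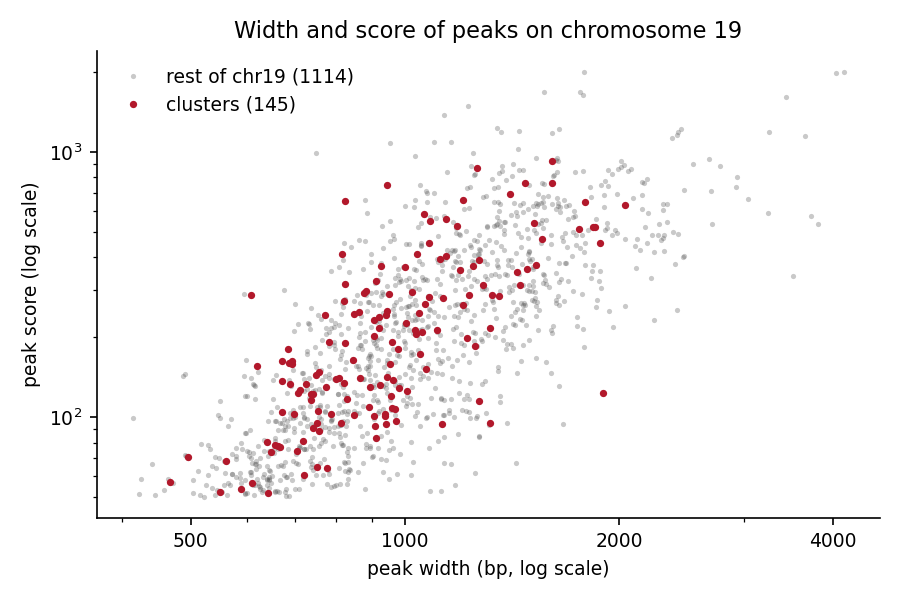
Score against width for the 145 cluster peaks (red) and the 1114 other peaks of chromosome 19 (grey), both axes on a log scale. Cluster peaks follow the same band as the others and end at 2043 bp and a score of 925, where the others go on to 4149 bp and 2001.

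The nearest peaks inside and outside the borders did not differ in 1 direction. Not all of them were close to the border. Their middles lay up to 183 kb inside and up to 3885 kb outside, both at the end of cluster 2. Of 11 borders with a peak on either side, the inside peak scored higher at 6 and the outside peak at 5. At the start of cluster 1 they scored 239 inside and 234 outside, and at its end 358 inside and 391 outside. At the start of cluster 4 the values were 520 inside and 454 outside. The borders of cluster 3 had the widest contrasts, with 362 inside and 71.4 outside at its start and 93.8 inside and 496 outside at its end. The strongest peaks of clusters 2 and 4 lay within 100 kb of a border. With all borders moved inwards by 100 kb, 122 peaks remained, their density was 11.3 per Mb (9.35 to 13.5) and their median score was 159.

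The DNA-binding mutant had 0 of its 38 peaks on chromosome 19, in the clusters or elsewhere. Its peaks lay on 14 other chromosomes and had scores from 50.4 to 94.5. With so short a list, the clusters and the rest of the chromosome could not be compared for the mutant.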

How the data were processed

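Peak lists of 2 of the 3 conditions were analysed; the empty-vector reads were not analysed here. Per the submitters' processing notes, Bowtie 0.12.7, MACS 1.4.1 and build hg19 were used. How the 2 replicates of the design entered 1 list was not stated. The lists have no header. Their last column is the authors' deposited score, of the form that MACS writes, whose scale is not stated. Read numbers are unknown. Starts were converted from 0-based to 1-based.

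Spans of the rest of chromosome 19 run from its first to its last wild-type peak, clusters removed. Densities have exact Poisson intervals, ratios of densities exact conditional binomial intervals, shares Clopper-Pearson intervals and medians binomial order-statistic intervals, all at 95%. No test was made, since peaks of 1 list are not replicates. Named peaks were, per cluster, the 2 of highest score, the lowest, the widest and those beside the longest gap, with the closest pair and those at borders; other peaks were named once their values were known. The cluster borders are positions and use no peak value, but these clusters were picked for study, and the measures chosen, with earlier results of these data known. The interval calculations were tested on simulated data. The software was SciPy 1.17.1, pandas 2.3.3, numpy 2.4.6 and matplotlib 3.10.9 under Python 3.11.15.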

Additional observations from a re-analysis of the deposited data

How the results depend on the processing

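No paired analysis was possible because the lists carry no replicate, and for the same reason no replicate was left out. Of 48 alternative values of the main results, 6 equalled the value reported, 5 of them because no peak crosses a border, and 5 others were added after seeing the data. None of the remaining 37 changed direction, and 31 stayed within the 95% interval of the value reported. Those of the cluster density itself, in peaks per Mb, could not change direction. With peaks of score 100 or more, the clusters held 9.81 peaks per Mb and the median width differed from the rest by -217 bp (-97 bp over all peaks). With peaks under 1 kb apart merged, that difference was -161 bp. The ratio of densities was 0.74 without cluster 2, 0.387 without cluster 6, and 0.382 against the short arm only, a setting added after seeing the data. It ran from 0.448 to 0.568 under the other settings. The difference in median score from the rest was -28.2 over all clusters and -73.1 without cluster 6, and it was smallest, -6.86, without cluster 4. At score 100 or more, 3.39% of cluster peaks and 13.6% of the others had a neighbour within 1 kb. Counting neighbours within 2 kb gave 4.14% and 25.8%. Sequence and gene settings foreseen for hg19 were not run, for want of sequence and genes of that build in the material used. Read depth is unknown, and whether it limits weak peaks in the clusters was not tested.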
